A study of Mus musculus with 5 samples.

Results

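The replication-dependent histone genes were examined in mouse embryonic stem (ES) cells with and without C3G, the guanine nucleotide exchange factor encoded by Rapgef1. Members were taken by name, as all gene symbols that begin with Hist1h, Hist2h, Hist3h or Hist4h in the GENCODE M21 annotation, which gave 70 of 55147 symbols. They comprised 6 H1, 20 H2A, 19 H2B, 12 H3 and 13 H4 genes. The group was chosen by its genotype differences in these same samples, seen in an earlier look at the scaled values of all 5 libraries, so the genotype differences of its members are given as a description. Calls and standard errors of members come from the fit over all genes and are no independent evidence about the group. RNA had been sequenced from 3 WT samples, which were the E14Tg2a parent line, and 2 C3G KO samples, which were E14Tg2a cells of the genotype C3G-/-. All were ES cells grown without treatment on gelatin in serum medium with LIF, the cytokine that keeps them undifferentiated. The KO line had been made by nucleofection of a CRISPR knockout plasmid and a targeting donor, puromycin selection and colony picking, none of which the WT parent went through, so loss of C3G and these steps cannot be told apart in this comparison. The study calls the samples of each genotype independent, but neither it nor the labels say whether the sequenced samples were separate clones or cultures, so p-values measure only the spread between these samples, which may be technical.

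Replication-dependent histone genes supply the proteins that package newly copied DNA. They are transcribed mainly in S phase from clusters of small intronless genes, and each nucleosome takes pairs of the core histones H2A, H2B, H3 and H4 while the linker histone H1 binds outside it. Their mRNAs are the best known exception to polyadenylation: the 3' end is made by a cut just after a conserved stem-loop, which is bound by SLBP, and U7 snRNA guides the cut. The mRNA is degraded when DNA synthesis stops. Replacement variants such as H2A.Z (H2afz) and H3.3 (H3f3a and H3f3b) come from ordinary polyadenylated mRNAs and are made throughout the cell cycle. ES cells have a short G1 phase, and many of them are in S phase at any time.

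The 3' stem-loop sets these mRNAs apart, and it is shown here for members that return in the results below. A search of the annotated sequence after the stop codon for a 16-base element with a 6-base-pair stem and a 4-base loop found it in the main transcript of 46 of the 70 members. Of the other 24 members, 17 had a model that ends at the stop codon, 3 had no annotated coding sequence and 4 had sequence past the stop codon in which the motif was not found. The element lay between 21 and 58 bases after the stop codon. Capitals mark the stem-loop, and lower-case letters mark up to 5 neighbouring bases on each side, read 5' to 3' from the GENCODE M21 transcripts of GRCm38.
Hist1h1t: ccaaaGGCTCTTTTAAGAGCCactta
Hist1h2ap: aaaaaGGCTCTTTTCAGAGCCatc
Hist1h2bk: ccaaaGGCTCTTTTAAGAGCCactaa
Hist1h3b: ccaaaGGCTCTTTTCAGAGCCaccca
Hist3h2a: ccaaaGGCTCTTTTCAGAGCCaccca
Hist1h4h: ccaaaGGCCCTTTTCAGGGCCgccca
Hist1h4b: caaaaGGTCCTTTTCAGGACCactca
Hist4h4: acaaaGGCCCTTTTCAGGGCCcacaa
The first strand of the stem, at the letters that the search left free, separated H4 from the other classes. All 34 members with a stem-loop outside H4 began with GGCTCT, whereas 10 of the 12 H4 members began with GGCCCT and 2, Hist1h4b and Hist1h4j, with GGTCCT. The most common full element occurred in 26 members of the H1, H2A, H2B and H3 classes, and the most common H4 element in 7 members, among them Hist4h4, the only member on chromosome 6.

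Members lay in 4 clusters of GRCm38. Hist1 held 56 genes, 55 of them between positions 21715763 and 23934851 of chromosome 13, and Hist1h2al, a processed pseudogene, lay apart from them at chr13:51202727-51203065. Hist2 held 10 genes on chromosome 3 (96219865 to 96270132), Hist3 held 3 on chromosome 11 (58948920 to 58956830) and Hist4h4 stood alone at chr6:136801553-136804415. H2A and H2B genes were often arranged head to head: 14 pairs lay on opposite strands with their starts 173 to 306 bases apart. The RefSeq promoter of Hist1h2bk (GRCm38.p6, chr13:22035571-22035870, plus strand, from 250 bases before the start to 50 after) is shown because it spans nearly all of the interval to its partner Hist1h2ah, a pair that behaved differently between libraries (described further on). Capitals mark CCAAT and TATAAA or their reverse complements, ATTGG and TTTATA.
Hist1h2bk promoter: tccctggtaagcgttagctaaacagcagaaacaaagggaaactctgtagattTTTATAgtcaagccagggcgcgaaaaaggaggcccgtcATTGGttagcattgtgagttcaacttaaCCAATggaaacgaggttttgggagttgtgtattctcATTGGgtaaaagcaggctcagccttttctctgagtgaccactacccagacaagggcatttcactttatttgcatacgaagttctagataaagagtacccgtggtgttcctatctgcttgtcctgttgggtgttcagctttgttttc
It held CCAAT once, ATTGG 2 times and TTTATA once. RefSeq promoters were matched for 62 members (63 promoters). CCAAT or ATTGG was present in 85.7% of them, beside 37.4% of all 32851 promoters of this length, and TATAAA or TTTATA in 55.6% beside 13.6%. CCAAT or ATTGG was found in every promoter matched to an H1, H2A, H2B or H3 gene and in 3 of 12 H4 promoters. Promoters of head-to-head partners share sequence, and either strand was counted, so the H2A and H2B promoters are not all separate.

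Several facts of the libraries bear on every value below. The deposited values are TPM, a share of all transcripts, which set each transcript's reads against its length and against the library's total, so the number of reads behind a value is unknown and counting error cannot be computed. In bulk RNA, fewer cells of a type (for example in S phase) and less RNA per cell cannot be told apart. Small non-coding RNAs took 63.1 to 67.5% of the TPM in WT and 69.8 to 78.4% in C3G KO, and TPM of a library always sum to the same total. Values are therefore given both in their deposited form and as scaled TPM, for which every library was divided by a size factor (median-of-ratios). The median log2 fold change of the 12518 genes tested, on log2(TPM + 1), was -0.55 as deposited and 0.0052 scaled. A log2 fold change is always C3G KO minus WT, and this scale understates the change of genes with low TPM. Rapgef1 had 8.67, 8.46 and 8.75 scaled TPM across WT 1, 2 and 3, against 6.35 and 6.14 scaled TPM in C3G KO 1 and 2 (log2 fold change -0.41, standard error 0.059, adjusted p = 0.00444 from limma). The targeting replaced early exons of Rapgef1 only, and the sum covers all of its exons, so it is a limited check of the labels. The call was lost with the length and GC correction (-0.15), with and without the replicate block. All 10 ES cell markers examined reached 1 TPM in at least 2 samples, whereas 6 of 7 extraembryonic endoderm markers were below 1 TPM in all samples, and 5 of 7 fibroblast markers were, while none of these markers was at 0 in all samples. Their summed levels in WT and C3G KO were 1775 to 2186 and 2668 to 2961 scaled TPM for ES cell markers, 3.47 to 3.73 and 5.80 to 7.79 for endoderm markers and 3.72 to 4.44 and 1.66 to 1.72 for fibroblast markers, and their part in the results below was not tested. Dppa5a carried most of the ES cell marker difference: without it the sums were 794 to 896 in WT and 934 to 952 in C3G KO, and the other 9 markers did not pass the test. Dppa5a (log2 fold change 0.71, standard error 0.18, adjusted p = 0.0307 from limma) and Dab2 (log2 fold change 0.69, standard error 0.16, adjusted p = 0.0247 from limma) rose, and their calls were lost in 11 and 5 alternatives. Col1a1 (log2 fold change -0.96, standard error 0.10, adjusted p = 0.00135 from limma) and Thy1 (log2 fold change -0.36, standard error 0.083, adjusted p = 0.0227 from limma) fell, and the call of Thy1 was lost in 5.

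Of the 70 members, 66 reached 1 TPM in at least 2 samples. Hist1h2ao and Hist2h3c1 were listed at 0 in all samples, and Hist1h4m and Hist2h2be stayed below 1 TPM. Hist1h2ao, Hist2h3c1 and Hist1h4m each have a coding sequence identical to that of a neighbour (Hist1h2ap, Hist2h3c2 and Hist1h4n), so reads within the coding sequence cannot be told apart and a level of 0 is uncertain. As many as 65 members were at 1 TPM or more in every sample. The exception that passed was Hist1h2aj, a pseudogene with 1.09, 0.64 and 0 TPM across WT 1, 2 and 3, against 0 and 1.03 TPM in C3G KO 1 and 2.

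Together the 70 members held 14733, 14226 and 11011 TPM across WT 1, 2 and 3, against 11211 and 16166 TPM in C3G KO 1 and 2. The groups overlapped, with a log2 fold change of 0.027. After scaling they held 11053, 11680 and 9990 scaled TPM across WT 1, 2 and 3, against 18149 and 17871 scaled TPM in C3G KO 1 and 2, and both C3G KO libraries lay above all WT libraries (log2 fold change 0.73). As a share of the TPM on protein-coding genes, the sum was 4.63, 4.54 and 3.83% in WT 1 to 3 and 6.03 and 6.21% in C3G KO 1 and 2. The deposited sums thus differed by less than their spread, while most other genes were lower in C3G KO, and the scaled sums and the shares were higher in C3G KO.

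**Figure D1:**
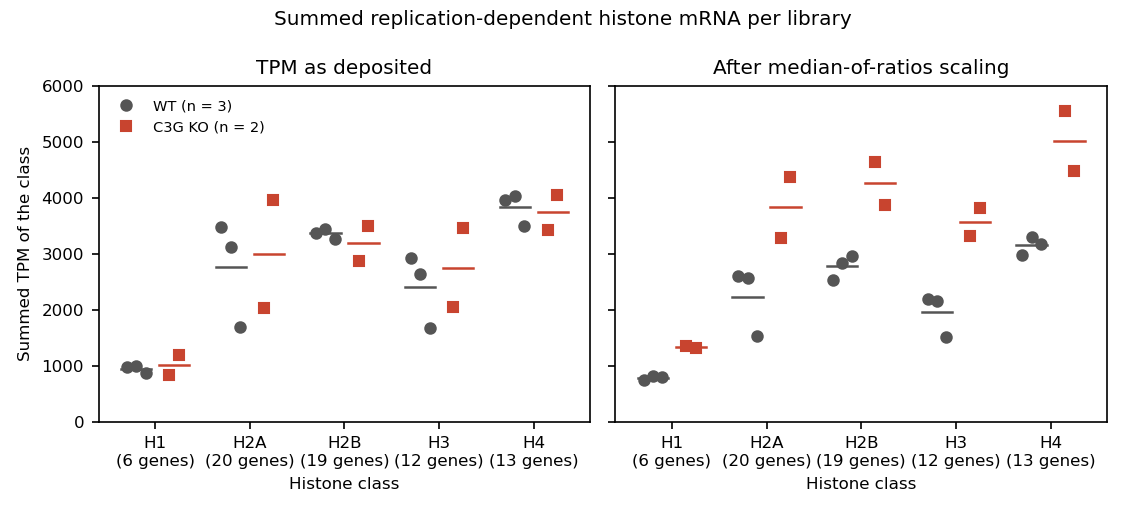
Summed TPM of each histone class (y axis, TPM, from 0) in the 3 WT libraries (circles) and the 2 C3G KO libraries (squares), as deposited (left) and scaled by median-of-ratios (right), with lines at the group means. As deposited the genotypes overlap in every class, and after scaling both C3G KO libraries lie above all WT libraries in every class.

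Scaled values were higher in C3G KO in all 5 classes, and the H2B and H4 sums were slightly lower as deposited. As a share of the TPM on protein-coding genes, the H2A sums overlapped between genotypes, and the other classes were higher in C3G KO without overlap. The H2A shares were 1.092, 0.998 and 0.588% in WT 1 to 3 and 1.090 and 1.522% in C3G KO 1 and 2. H1 genes, which encode linker histones, summed to 736, 812 and 795 scaled TPM across WT 1, 2 and 3, against 1353 and 1316 scaled TPM in C3G KO 1 and 2 (log2 fold change 0.77, and 0.074 as deposited). H2A genes summed to 2607, 2570 and 1534 scaled TPM across WT 1, 2 and 3, against 3281 and 4379 scaled TPM in C3G KO 1 and 2 (log2 fold change 0.80, and 0.10 as deposited). H2B genes summed to 2536, 2829 and 2964 scaled TPM across WT 1, 2 and 3, against 4648 and 3868 scaled TPM in C3G KO 1 and 2 (log2 fold change 0.61, and -0.086 as deposited). WT 3 stood well below WT 1 and WT 2 in H2A, and C3G KO 1 was the lower C3G KO library in H2A but the higher one in H2B. H3 genes summed to 2197, 2165 and 1521 scaled TPM across WT 1, 2 and 3, against 3320 and 3825 scaled TPM in C3G KO 1 and 2 (log2 fold change 0.88, and 0.18 as deposited). H4 genes, the class with the largest sum, had 2976, 3305 and 3176 scaled TPM across WT 1, 2 and 3, against 5547 and 4483 scaled TPM in C3G KO 1 and 2 (log2 fold change 0.66, and -0.037 as deposited).

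Taken gene by gene, 52 of the 66 members that passed the filter were called higher in C3G KO at an adjusted p under 0.05 by limma on scaled values and 0 lower, beside 14.1% of all tested genes called higher and 16.6% lower. Since the group was picked for this contrast, nothing is read from that count. On TPM as deposited, 2 were called higher and 0 lower, beside 1.45% of genes higher and 56.8% lower. In the deposited fit the standard error followed the level of a gene only, as estimated over all genes. A gene's own spread between samples did not enter its deposited call. Hist4h4, higher without overlap as deposited, was not called there (standard error 0.27). Subtracting a smooth trend over length and GC left 34 called higher and 0 lower, beside 14.4% and 15.6% of genes. The scaled log2 fold change was above 0 in all 66 members, beside 50.7% of genes, and had a median of 0.75. As deposited it was above 0 in 40 of 66 members, beside 5.26% of genes, with a median of 0.061. In 63 of 66 members both scaled C3G KO values lay above all WT values, beside 29.5% of genes (and 29.3% with both below), and the exceptions were Hist1h2ah, Hist1h2ai and Hist1h2aj. As deposited, 6 members were higher without overlap, beside 1.49% of genes, and 3 (Hist1h2bl, Hist1h2bj and Hist1h2bn) were lower without overlap, beside 75.7% of genes.

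**Figure D2:**
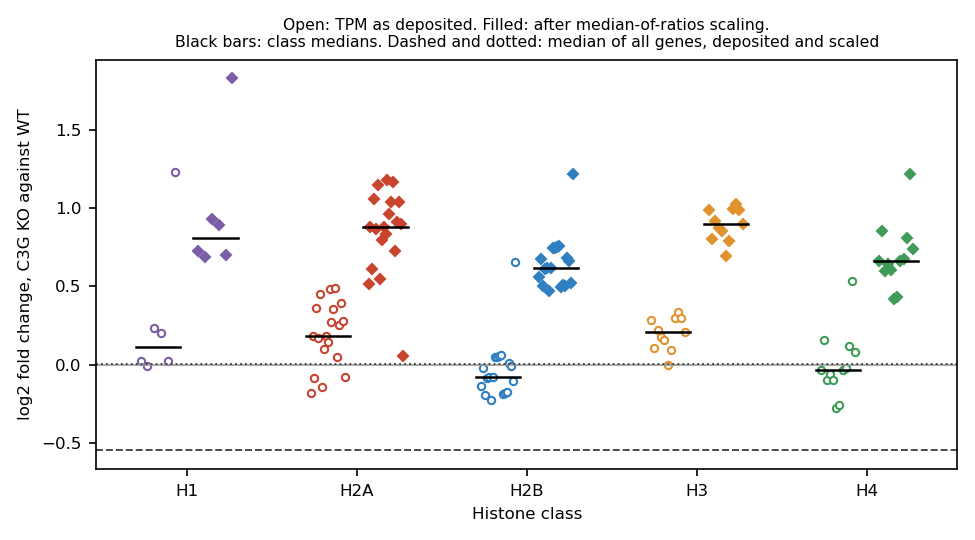
The log2 fold change of each of the 66 members (y axis, C3G KO against WT, on log2(TPM + 1)) by histone class (x axis), as deposited (open symbols) and scaled by median-of-ratios (filled symbols), with class medians as black bars and the medians of all tested genes as dashed (deposited, -0.55) and dotted (scaled, 0.0052) lines. Deposited values centre near 0, with medians below 0 in H2B and H4, while scaled values are above 0 for all 66 members.

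Among the H1 genes the highest levels were those of Hist1h1a, Hist1h1b and Hist1h1c. Hist1h1a (chr13:23763666-23764406) had 351, 386 and 405 scaled TPM across WT 1, 2 and 3, against 671 and 589 scaled TPM in C3G KO 1 and 2 (log2 fold change 0.72, and 0.026 as deposited). Hist1h1b had the smallest fold change of the class, 0.69 scaled and -0.010 as deposited, with 177, 203 and 198 scaled TPM across WT 1, 2 and 3, against 294 and 328 scaled TPM in C3G KO 1 and 2. Both C3G KO libraries lay above the WT range for each of these genes after scaling. Hist1h1c had 119, 132 and 109 scaled TPM across WT 1, 2 and 3, against 225 and 233 scaled TPM in C3G KO 1 and 2 (log2 fold change 0.93), and Hist1h1d had 26.4, 27.3 and 26.2 scaled TPM across WT 1, 2 and 3, against 45.5 and 42.3 scaled TPM in C3G KO 1 and 2 (log2 fold change 0.70). WT 3 differed from the mean of WT 1 and WT 2 by -0.20 to 0.17 on the log2 scale over the 6 H1 genes, and C3G KO 1 from C3G KO 2 by -0.16 to 0.26.

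Hist1h1t (chr13:23695814-23696725) encodes a linker histone known from male germ cells and had the largest scaled fold change of the members. As deposited it had 3.69, 3.09 and 3.43 TPM across WT 1, 2 and 3, against 8.52 and 10.2 TPM in C3G KO 1 and 2, so both C3G KO libraries were above every WT library without scaling. Scaled, it had 2.77, 2.54 and 3.11 scaled TPM across WT 1, 2 and 3, against 13.8 and 11.3 scaled TPM in C3G KO 1 and 2 (log2 fold change 1.83, standard error 0.11, and 1.23 as deposited). Over 18 alternative settings its log2 fold change lay between 1.17 and 2.12. The testis-type core histones Hist1h2ba and Hist1h2aa share a head-to-head interval. Hist1h2ba had 3.13, 2.36 and 2.63 TPM across WT 1, 2 and 3, against 5.69 and 4.06 TPM in C3G KO 1 and 2 (scaled log2 fold change 1.22, and 0.66 as deposited), and Hist1h2aa had 5.9, 7.35 and 7.31 TPM across WT 1, 2 and 3, against 8.32 and 8.66 TPM in C3G KO 1 and 2 (scaled 0.90, deposited 0.28). Hist1h1t and Hist1h2ba were the 2 members called higher as deposited. All 3 were low in both genotypes, at most 13.8 scaled TPM.

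H2A genes showed the widest differences between WT libraries. The highest were Hist2h2aa2, with 449, 441 and 357 scaled TPM across WT 1, 2 and 3, against 520.2 and 676 scaled TPM in C3G KO 1 and 2, Hist1h2ap and the pseudogene Hist1h2al. Hist2h2aa2 had the second smallest fold change of the class (0.52, and -0.18 as deposited), but its coding sequence is identical to that of Hist2h2aa1, so the split of reads between them is uncertain. Hist1h2ap had 296, 279.6 and 162 scaled TPM across WT 1, 2 and 3, against 371 and 519 scaled TPM in C3G KO 1 and 2 (log2 fold change 0.88, standard error 0.29). WT 3 was its lowest library, below all others by more than the spread of WT 1 and WT 2. Hist1h2al had 230.0, 238 and 174 scaled TPM across WT 1, 2 and 3, against 294 and 358 scaled TPM in C3G KO 1 and 2, although it is annotated as a processed pseudogene. The largest fold changes were those of Hist1h2ad (1.18, and 0.49 as deposited) and Hist1h2an (1.17, and 0.49). Hist1h2ad had 70.6, 78.2 and 57.3 scaled TPM across WT 1, 2 and 3, against 168 and 144 scaled TPM in C3G KO 1 and 2, and Hist1h2an had 33.7, 30.7 and 15.6 scaled TPM across WT 1, 2 and 3, against 53.6 and 63.4 scaled TPM in C3G KO 1 and 2. Both were higher in both C3G KO libraries.

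H2B genes were more even. The highest was Hist2h2bb, with 367, 444 and 466 scaled TPM across WT 1, 2 and 3, against 657 and 596 scaled TPM in C3G KO 1 and 2. Hist1h2bb had 370.3, 420.2 and 425 scaled TPM across WT 1, 2 and 3, against 723 and 578 scaled TPM in C3G KO 1 and 2. Hist1h2bk, partner of Hist1h2ah, had 379, 398 and 377 scaled TPM across WT 1, 2 and 3, against 559 and 531 scaled TPM in C3G KO 1 and 2. Their scaled log2 fold changes were 0.56, 0.68 and 0.50, and their deposited ones -0.13, -0.023 and -0.20. After scaling the C3G KO libraries were above the WT range in each, and as deposited they were not. The smallest scaled fold changes were 0.47 for Hist1h2bj and 0.50 for Hist1h2bc (-0.23 and -0.19 as deposited). C3G KO 1 was above C3G KO 2 in all 18 H2B genes that passed the filter. Hist1h2bp had the largest fold change after Hist1h2ba, 0.76 scaled and 0.064 as deposited, with 69.9, 81.6 and 84.2 scaled TPM across WT 1, 2 and 3, against 151 and 117 scaled TPM in C3G KO 1 and 2.

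H3 genes were led by Hist1h3h, with 423, 396 and 218 scaled TPM across WT 1, 2 and 3, against 581 and 746 scaled TPM in C3G KO 1 and 2. Hist1h3b had 329.8, 323 and 215 scaled TPM across WT 1, 2 and 3, against 441 and 558 scaled TPM in C3G KO 1 and 2. Hist1h3i had 269, 282 and 175 scaled TPM across WT 1, 2 and 3, against 390.3 and 516 scaled TPM in C3G KO 1 and 2. WT 3 was the lowest library in all 3. Their scaled log2 fold changes were 0.99, 0.80 and 0.92, and 0.29, 0.10 and 0.22 as deposited. The largest fold changes of the class, 1.03 for Hist2h3c2 and 0.995 for Hist2h3b, stood beside large standard errors (0.31 and 0.48). Hist2h3b had 162, 139 and 51.2 scaled TPM across WT 1, 2 and 3, against 189.8 and 233 scaled TPM in C3G KO 1 and 2, with WT 3 far below the rest, and Hist2h3c2 had 109, 101 and 58.6 scaled TPM across WT 1, 2 and 3, against 141 and 223 scaled TPM in C3G KO 1 and 2. The smallest were Hist1h3c (0.69, and -0.0049 as deposited) and Hist1h3a (0.79, and 0.095). In Hist1h3c the WT libraries ran from 169 to 194 scaled TPM and C3G KO had 323 and 275.

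H4 genes, which encode the same class of highly conserved core histone, held the 2 highest single levels. Hist1h4n had 575, 674 and 634 scaled TPM across WT 1, 2 and 3, against 1048 and 943 scaled TPM in C3G KO 1 and 2 (log2 fold change 0.67, and -0.033 as deposited). Hist1h4h had 551, 586 and 549.9 scaled TPM across WT 1, 2 and 3, against 1268 and 817 scaled TPM in C3G KO 1 and 2 (log2 fold change 0.86, and 0.16 as deposited), and C3G KO 1 was by far its highest library. Hist1h4a followed, with 426, 483 and 459 scaled TPM across WT 1, 2 and 3, against 772 and 617 scaled TPM in C3G KO 1 and 2 (log2 fold change 0.60, and -0.10 as deposited). The smallest fold changes were those of Hist1h4b (0.42, and -0.28 as deposited) and Hist1h4d (0.44, and -0.26).

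**Figure D3:**
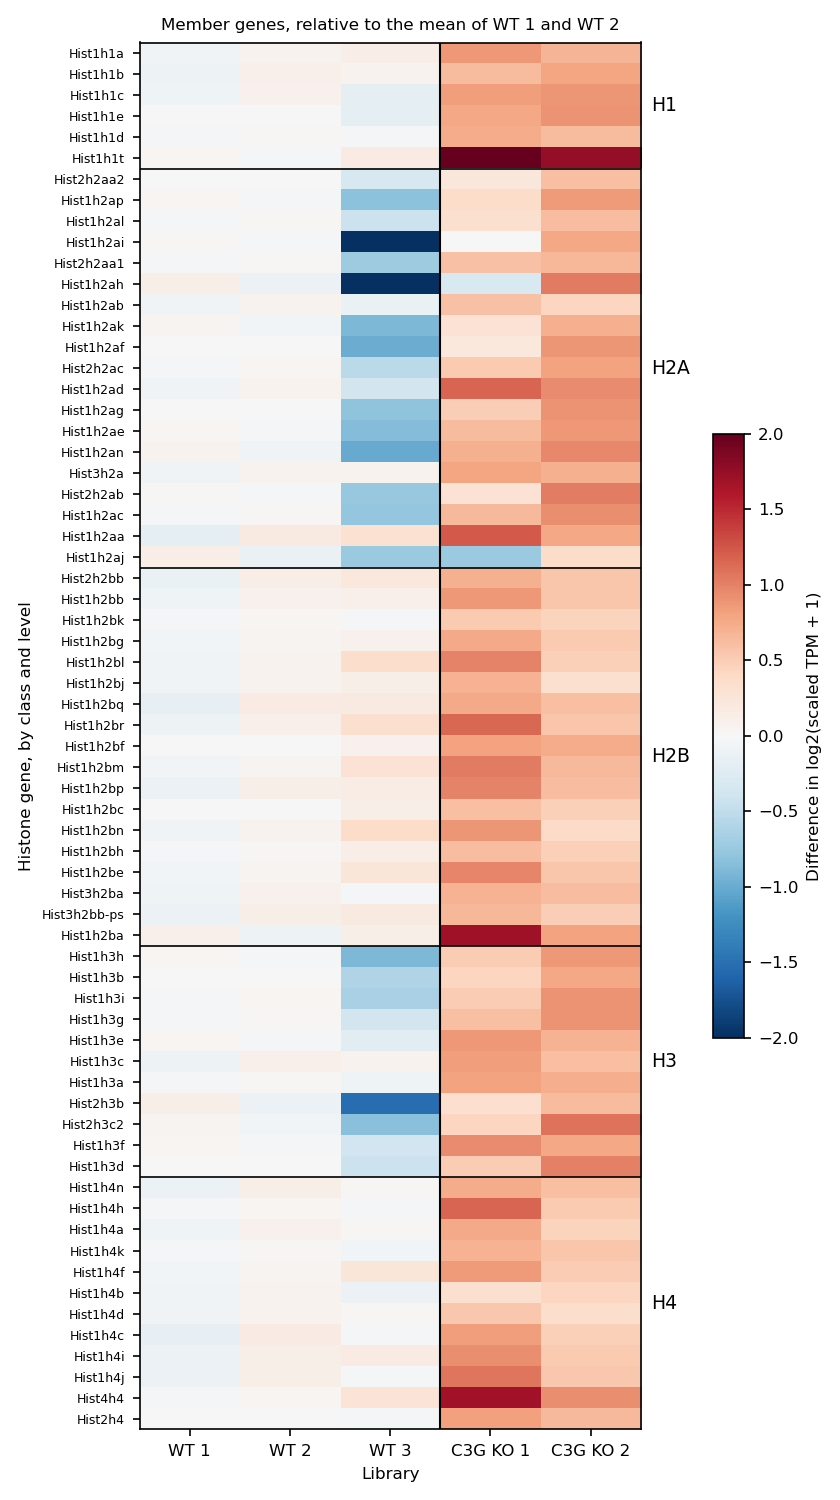
Difference in log2(scaled TPM + 1) of each of the 66 members (rows, by class and level) from the mean of WT 1 and WT 2, in the 5 libraries (columns), from blue (lower) to red (higher), on a colour scale that stops at -2 and 2. WT 3 is blue in most H2A and H3 rows and near white in H1, H2B and H4, and C3G KO rows are red except Hist1h2ah, Hist1h2ai and Hist1h2aj in C3G KO 1.

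The smaller clusters were higher in C3G KO after scaling, and Hist2 was slightly lower as deposited. Hist2 summed to 1431, 1480 and 1159 scaled TPM across WT 1, 2 and 3, against 2028 and 2309 scaled TPM in C3G KO 1 and 2 (log2 fold change 0.68, and -0.018 as deposited). WT 3 was its lowest library. In Hist3, Hist3h2a had 20.1, 22.1 and 22.3 scaled TPM across WT 1, 2 and 3, against 37.3 and 35.1 scaled TPM in C3G KO 1 and 2 (log2 fold change 0.73, and 0.050 as deposited), Hist3h2ba had 18.2, 20.5 and 18.8 scaled TPM across WT 1, 2 and 3, against 31.7 and 30.1 scaled TPM in C3G KO 1 and 2 (0.66, and -0.0077) and the pseudogene Hist3h2bb-ps had 6.72, 8.06 and 8.46 scaled TPM across WT 1, 2 and 3, against 12.3 and 10.8 scaled TPM in C3G KO 1 and 2 (0.52, and -0.11). Each of these 3 was above the WT range in both scaled C3G KO libraries. Hist4h4 had 30.5, 29.4 and 31.3 TPM across WT 1, 2 and 3, against 47.9 and 41.3 TPM in C3G KO 1 and 2, higher in C3G KO without scaling (log2 fold change 0.54), and 22.9, 24.1 and 28.4 scaled TPM across WT 1, 2 and 3, against 77.6 and 45.6 scaled TPM in C3G KO 1 and 2 (1.22).

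The libraries of 1 genotype differed in a pattern that followed the histone class. WT 3 lay below WT 1 and WT 2 in 17 of 19 H2A genes and 10 of 11 H3 genes, but in 1 of 18 H2B genes, 4 of 12 H4 genes and 3 of 6 H1 genes, beside 34.2% of all tested genes. The median difference of WT 3 from the mean of WT 1 and WT 2, on the log2 scale, was -0.76 in H2A, -0.43 in H3, 0.15 in H2B and -0.0003 in H4. C3G KO 1 was above C3G KO 2 in 4 of 19 H2A, 4 of 11 H3, 18 of 18 H2B and 11 of 12 H4 genes, with median differences of -0.28, -0.29, 0.27 and 0.34. The extremes were Hist1h2ah, with 249, 212 and 44.6 scaled TPM across WT 1, 2 and 3, against 186 and 474 scaled TPM in C3G KO 1 and 2, and Hist1h2ai, with 259, 250.1 and 61.6 scaled TPM across WT 1, 2 and 3, against 254 and 434 scaled TPM in C3G KO 1 and 2. In these genes WT 3 held 19.3% and 24.2% of the mean of WT 1 and WT 2, and the genotypes overlapped. The ratio of summed H2A to summed H2B, which no scaling can move, was 1.03, 0.908 and 0.518 in WT 1 to 3 and 0.706 and 1.13 in C3G KO 1 and 2. The ratio of H2B to H4 was 0.852, 0.856 and 0.933 in WT 1 to 3 and 0.838 and 0.863 in C3G KO 1 and 2, close to constant.

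The pattern moved with base composition. The coding sequence of members had a median GC content of 68.7% in H2A and 66.9% in H3, beside 64.9% in H4, 62.7% in H2B and 59.4% in H1. WT 3 was the lowest WT library in 24 of 27 members above 66% GC and in 9 of 36 up to 66%, beside 34.2% of all tested genes. Across the 63 members with a coding sequence, the difference of WT 3 had a Spearman correlation of -0.79 with coding GC, as a description of genes that share libraries and sequence. Within H2A the 3 genes of lowest GC were mixed: Hist1h2aa (60.8%) and Hist3h2a (61.6%) held 127% and 106% of the WT 1 and WT 2 mean in WT 3, but Hist2h2ab (63.1%) held 56.4%. Among H2A genes of high GC, Hist1h2ab (69%) held 90.7%. These genes were picked after their values were seen. The first 90 coding bases show the contrast, with G and C in capitals.
Hist1h2ah: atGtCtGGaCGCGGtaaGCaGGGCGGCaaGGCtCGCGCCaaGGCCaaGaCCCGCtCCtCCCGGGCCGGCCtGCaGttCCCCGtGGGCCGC
Hist3h2a: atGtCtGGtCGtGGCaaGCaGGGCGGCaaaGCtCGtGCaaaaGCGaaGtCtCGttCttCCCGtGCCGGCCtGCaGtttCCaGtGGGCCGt
Hist1h2aa: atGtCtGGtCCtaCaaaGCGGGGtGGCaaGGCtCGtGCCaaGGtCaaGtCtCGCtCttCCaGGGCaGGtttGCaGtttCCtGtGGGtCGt
Hist1h2bk: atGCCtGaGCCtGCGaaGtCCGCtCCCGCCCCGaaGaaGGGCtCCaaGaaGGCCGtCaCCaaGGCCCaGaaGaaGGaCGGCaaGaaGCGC
G and C made up 66, 55, 52 and 58 of the 90 bases, and 96.1% of last codon positions over the whole coding sequence in Hist1h2ah against 72.5% in Hist3h2a, 70.8% in Hist1h2aa and 92.9% in Hist1h2bk, which held 96.9% in WT 3. Hist1h2ah and Hist3h2a were identical at 74 of these 90 positions. Outside the group the relation with coding GC was weak: the Spearman correlation was 0.066 over 10235 other protein-coding genes, and the median difference of WT 3 was -0.087 over 61 such genes with 66 to 68% coding GC and -0.11 over 88 above 68%, beside -0.38 over 14 and -0.86 over 13 members. By GC of the whole transcript, a different measure, it was -0.25 over 17 other genes of 66 to 68% and -0.86 over 9 above 68%. On that measure members had -1.22 over 4 genes and -0.95 over 6. H2afx, an H2A variant gene of 69.7% coding GC chosen after its values were seen, had 108, 98.5 and 58.5 scaled TPM across WT 1, 2 and 3, against 122 and 181 scaled TPM in C3G KO 1 and 2. The part of base composition in the member values was not tested.

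**Figure D4:**
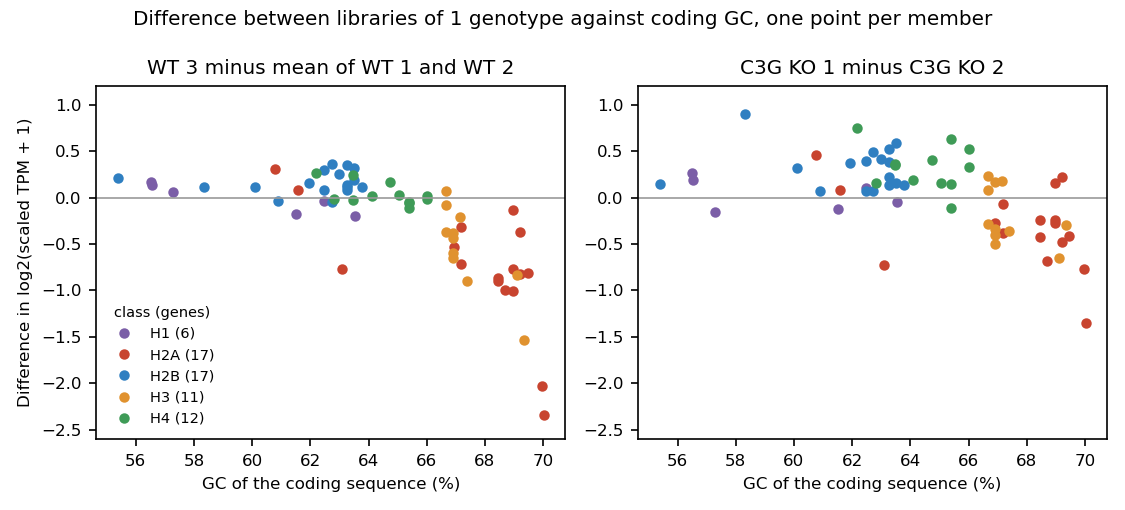
Difference in log2(scaled TPM + 1) between libraries of 1 genotype (y axis) against the GC content of the coding sequence (x axis, %), for the 63 members with a coding sequence, coloured by class, for WT 3 against the mean of WT 1 and WT 2 (left) and C3G KO 1 against C3G KO 2 (right). Below 66% GC most points lie near or above 0, and above it most lie below 0, down to -2.34 for Hist1h2ah on the left.

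Head-to-head pairs gave the same contrast between neighbours. In 12 pairs both genes passed the filter, and in 11 of them the H2A gene held a smaller share of its WT 1 and WT 2 mean in WT 3 than its H2B partner did. The exception was Hist1h2aa and Hist1h2ba. Apart from the near-zero pseudogene Hist1h2aj, H2A shares ran from 19.3% (Hist1h2ah) to 127% (Hist1h2aa), while H2B shares ran from 96.9% (Hist1h2bk) to 129% (Hist1h2bn). Hist1h2ah and Hist1h2bk, whose shared interval is printed above, start 302 bases apart, and they held 19.3% and 96.9%.

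**Figure D5:**
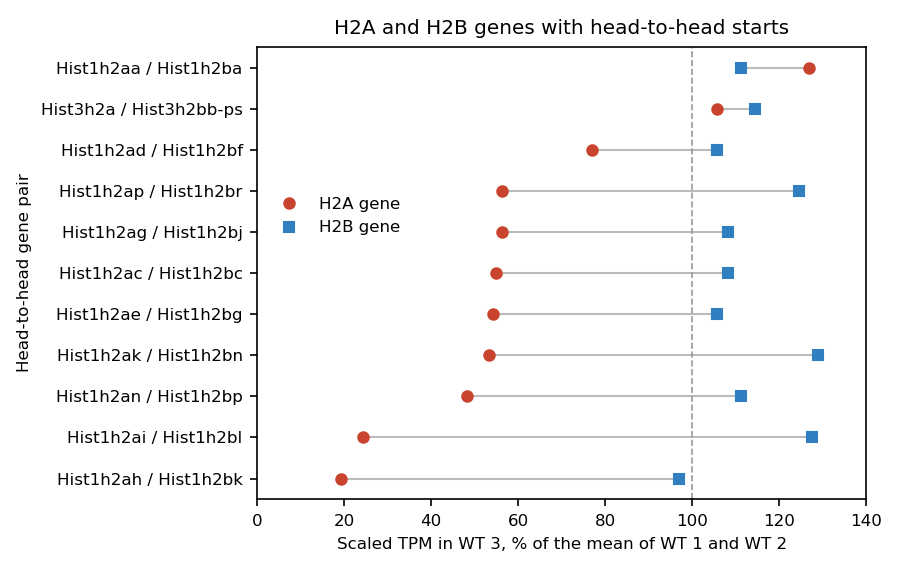
Scaled TPM in WT 3 as a percentage of the mean of WT 1 and WT 2 (x axis, from 0, dashed line at 100) for the H2A gene (circles) and the H2B gene (squares) of 11 head-to-head pairs (rows), leaving out the pair of the near-zero pseudogene Hist1h2aj. In 9 pairs the H2A gene lies below 80% and its H2B partner above 95%, and the pairs of Hist3h2a and Hist1h2aa do not show this gap.

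The genotype difference was recomputed without the libraries that stood apart. Without WT 3 the median scaled log2 fold change was 0.80 in H1, 0.63 in H2A, 0.66 in H2B, 0.75 in H3 and 0.68 in H4. Without C3G KO 1 it was 0.86, 1.07, 0.49, 1.02 and 0.51. With both left out it was 0.84, 0.80, 0.55, 0.78 and 0.52, from 1 C3G KO and 2 WT libraries. The medians with all libraries were 0.81, 0.88, 0.62, 0.90 and 0.66. Quantile normalization, which makes the distributions of all libraries equal, gave 0.56, 0.61, 0.34, 0.44 and 0.27, with 4 members below 0.

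The genotype difference of other genes varied with transcript length. The median scaled log2 fold change of other protein-coding genes was 0.19 for transcripts of 300 to 500 bases, 0.18 for 500 to 1000, 0.061 for 1000 to 2000, -0.023 for 2000 to 4000 and -0.086 above 4000. Members had medians of 0.78, 0.75, 0.89 and 0.88 in the first 4 of these ranges, which hold 28, 21, 9 and 4 members. After the correction for length and GC the median of all members was 0.57, beside 0.0084 for all genes, and 65 of 66 stayed above 0.

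The length of the gene model bears on the TPM of a member, since TPM divides reads by length. Of the members that passed, 17 had a model ending at the stop codon, 21 a model ending within 100 bases of the stem-loop and 22 a model running further past it, up to 4884 bases in Hist1h1d. Their median levels were 198, 243 and 66.4 scaled TPM, and their median scaled log2 fold changes 0.88, 0.75 and 0.77. Comparisons of level between members therefore depend on the annotation. Near-identical copies add a further uncertainty. Hist1h2bq and Hist1h2br share a 381-base transcript of the same sequence, listed at the same value in every library, from 147 to 167 TPM as deposited. Their longer transcripts took turns: that of Hist1h2bq had 37.5, 47.3, 35.3, 14.5 and 46.1 TPM over WT 1 to 3 and C3G KO 1 and 2, and that of Hist1h2br had 8.67, 0, 13.7, 24.4 and 0. Their sum stayed between 38.9 and 49.1 TPM. Hist1h2bp also had 2 transcripts above 1 TPM, of which the shorter held 86.0 to 98.8 TPM and the longer 6.02 to 7.10 TPM.

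The replacement variants, shown beside the members, differed among themselves. H2afz had 266, 331 and 337 scaled TPM across WT 1, 2 and 3, against 437 and 393 scaled TPM in C3G KO 1 and 2 (log2 fold change 0.42, and -0.28 as deposited). H3f3a had 258, 283 and 311 scaled TPM across WT 1, 2 and 3, against 377 and 311 scaled TPM in C3G KO 1 and 2 (0.27, and -0.42 as deposited), with C3G KO 2 close to WT 3. H3f3b had 140.3, 149.8 and 159.8 scaled TPM across WT 1, 2 and 3, against 138 and 131 scaled TPM in C3G KO 1 and 2 (-0.16, and -0.85 as deposited). Within a library, where no scaling enters, the summed members stood to H3f3b at 78.8, 78 and 62.5 in WT 1 to 3 and 132 and 136 in C3G KO 1 and 2, so both C3G KO ratios were above all WT ratios. The ratio to H3f3a was 42.8, 41.3 and 32.1 in WT 1 to 3 and 48.2 and 57.4 in C3G KO 1 and 2, also without overlap, and the ratio to H2afz was 41.6, 35.3 and 29.7 in WT 1 to 3 and 41.5 and 45.4 in C3G KO 1 and 2, with overlap. These ratios set mRNAs that are mostly not polyadenylated against polyadenylated ones. How RNA was selected is not given, so a difference in capture between libraries cannot be told apart from one in level. Of 11 tested histone genes listed outside the group, H2afx among them, 2 were called higher and 0 lower on scaled values, beside 14.1% and 16.6% of genes. These were H1f0 (log2 fold change 0.35, standard error 0.072, adjusted p = 0.0155 from limma) and H2afv (log2 fold change 0.28, standard error 0.079, adjusted p = 0.0399 from limma), and neither kept its direction as deposited (-0.29 and -0.40). The call was lost in 3 further alternatives for H1f0 and in 11 for H2afv, which had a log2 fold change of 0.0016 after the length and GC correction.

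Genes that make and handle histone mRNA moved little as lists, although single genes passed the test. Of 15 tested genes for 3' processing and decay, 3 rose, 1 fell and 11 did not pass, beside 14.1% of all genes higher and 16.6% lower, with a median log2 fold change of 0.079. Slbp, which encodes the stem-loop binding protein, rose (log2 fold change 0.27, standard error 0.070, adjusted p = 0.0332 from limma), with 21.1, 21.8 and 22.2 scaled TPM across WT 1, 2 and 3, against 25.1 and 27.4 scaled TPM in C3G KO 1 and 2, but its log2 fold change was -0.40 as deposited and it missed the threshold in 9 of the other alternatives. Ncbp1, a cap-binding subunit, rose (log2 fold change 0.34, standard error 0.072, adjusted p = 0.016 from limma, and -0.32 as deposited, with the call lost in 4 more), and Zfp473, which takes part in U7-dependent processing, fell (log2 fold change -0.50, standard error 0.079, adjusted p = 0.00606 from limma, and -1.10 as deposited). Rnu7, the U7 snRNA gene, was listed at 0 in all samples. Of 10 tested genes for histone gene transcription, 1 rose, 0 fell and 9 did not pass, beside the same shares. Npat, the coactivator of histone genes, had 7.39, 7.64 and 8.27 scaled TPM across WT 1, 2 and 3, against 7.33 and 7.31 scaled TPM in C3G KO 1 and 2 (log2 fold change -0.074, standard error 0.068, adjusted p = 0.45 from limma), and E2f1 rose (log2 fold change 0.35, standard error 0.076, adjusted p = 0.0183 from limma, and -0.19 as deposited), with the call lost in 6 further alternatives.

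Of 23 tested histone chaperone genes, 3 rose, 4 fell and 16 did not pass, beside 14.1% of all genes higher and 16.6% lower. Chaf1b, a subunit of the chromatin assembly factor that deposits H3 and H4 behind the replication fork, had 11.3, 11.7 and 12.8 scaled TPM across WT 1, 2 and 3, against 20.9 and 19.6 scaled TPM in C3G KO 1 and 2 (log2 fold change 0.72, standard error 0.077, adjusted p = 0.0017 from limma, and 0.062 as deposited). Supt16, a subunit of FACT, had 48.1, 50.6 and 50.6 scaled TPM across WT 1, 2 and 3, against 24.1 and 27.6 scaled TPM in C3G KO 1 and 2 (log2 fold change -0.92, standard error 0.082, adjusted p = 0.000931 from limma), and Ipo4, an importin that carries H3 and H4 to the nucleus, had 19.5, 17.8 and 17.5 scaled TPM across WT 1, 2 and 3, against 6.05 and 9.21 scaled TPM in C3G KO 1 and 2 (log2 fold change -1.18, standard error 0.16, adjusted p = 0.00341 from limma). Both had a log2 fold change below 0 and passed the test under all 18 alternatives, between -1.59 and -0.82 for Supt16 and between -1.80 and -0.89 for Ipo4. Both genes lie on chromosome 14, where the median log2 fold change of the 441 tested genes was -0.459, and the part of that chromosome-wide difference in their values was not tested. No member lies on chromosome 14.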

How the data were processed

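RNA-seq of 3 WT and 2 C3G KO samples was used. The labels give total RNA, Trizol extraction, DNase treatment and a standard Illumina library, and whether poly(A) RNA was selected or ribosomal RNA removed is not given in the sources used here. The submitters' processing notes name bcl2fastq 2.20, FastQC 0.11.7, STAR 2.5.1b and RSEM 1.2.31, and the authors deposited 1 table of TPM per transcript, from RSEM, with no counts. RSEM shares reads among near-identical transcripts by estimation, so levels of such copies are uncertain.

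Of 142647 transcripts, 141524 matched GENCODE M21 and 1123 did not. TPM were summed per symbol, and 12518 genes with at least 1 TPM in at least 2 samples were scaled by median-of-ratios and log2-transformed with a pseudocount of 1. They were tested with limma 3.58.1 in R 4.3.3, whose trend option lets the variance depend on the mean, with Benjamini-Hochberg adjustment at 0.05. Scripts were tested on simulated data with known changes. The members and all gene lists were chosen with earlier results of these data known. Members named are the 3 highest in level and the 2 largest and 2 smallest log2 fold changes of each class, all of Hist3 and Hist4, the testis-type members and those with several transcripts above 1 TPM, beside H2afz, H3f3a, H3f3b and Rapgef1. From each other list the 3 largest changes past the threshold, Slbp and Npat are named, except 1 gene that is not reported here. Members outside this rule appear only where counts or pairs required them and were picked after their values were seen.

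Alternatives were TPM as deposited, quantile normalization, size factors from protein-coding genes, a length and GC correction, pseudocounts of 0.1 and 5, filters of 5 TPM or none, limma without trend, a replicate block, near-identical copies left out and each library left out in turn. Leaving out WT 3 and C3G KO 1 together and a correction by coding length and coding GC were chosen after seeing the data. The deposited TPM values carry no read depth, so the precision rests on the 5 libraries. A vector-control line was not analysed here.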

Additional observations from a re-analysis of the deposited data

How the results depend on the processing

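Results of the genotype comparison on scaled values are compared with alternatives here. Counts are numbers of genes called by limma, and values for sums are log2 fold changes. Not every result is listed under every setting, and one that is not listed was not necessarily unchanged. Genes for histone mRNA processing and transcription and histone chaperones, of which 15, 10 and 23 were tested, are called supply genes. Of all tested genes, 14.1% were called higher and 16.6% lower on scaled values, and 1.45% higher and 56.8% lower as deposited. The share called higher was 14.4% with the length and GC correction, 9.5% with the replicate block added and 12.8% with quantile normalization. It was 11.9% with the replicate block alone and 4.3% without a filter. With quantile normalization 1832 of 12518 genes were called lower. With TPM as deposited the values were all genes called higher 181, members called higher 2, supply genes called higher 0, all genes called lower 7109, supply genes called lower 29, the median member log2 fold change 0.061, all member sum 0.027, H1 sum 0.074, H2A sum 0.10, H2B sum -0.086, H3 sum 0.18, H4 sum -0.037, Hist1 sum 0.031, Hist2 sum -0.018, Hist3 sum 0.0011, Hist4 sum 0.55. Without both WT 3 and C3G KO 1, chosen after seeing the data, the values were all genes called higher 1029, supply genes called higher 4, H4 sum 0.51. With the length and GC correction and the replicate block together the values were members called higher 23, supply genes called higher 3, the median member log2 fold change 0.45, all member sum 0.40, H1 sum 0.63, H2A sum 0.30, H2B sum 0.35, H3 sum 0.49, H4 sum 0.36, Hist1 sum 0.41, Hist2 sum 0.32, Hist3 sum 0.54. With the length and GC correction the values were members called higher 34, supply genes called higher 11, the median member log2 fold change 0.57, all member sum 0.48, H1 sum 0.64, H2A sum 0.56, H2B sum 0.34, H3 sum 0.67, H4 sum 0.39, Hist1 sum 0.48, Hist2 sum 0.44, Hist3 sum 0.55. Without a filter the values were members called higher 32 and supply genes called higher 3, beside 4.3% of all genes. Members called lower were 1 (Hist1h4m, at 0 in both C3G KO libraries and below 1 TPM in WT), beside 1895 of 33039 genes. With quantile normalization the values were members called higher 22, supply genes called higher 3, supply genes called lower 8, the median member log2 fold change 0.40, all member sum 0.26, H1 sum 0.31, H2A sum 0.38, H2B sum 0.14, H3 sum 0.43, H4 sum 0.18, Hist1 sum 0.26, Hist2 sum 0.20, Hist3 sum 0.61. With the replicate block the values were supply genes called higher 2. With a filter of 5 TPM the values were all genes called lower 1145. With a correction for coding length and coding GC, chosen after seeing the data, the values were all member sum 0.60, H4 sum 0.49, Hist1 sum 0.60, Hist3 sum 0.58. With 1 library left out in turn the ranges were all genes called higher 909 to 1579, members called higher 24 to 50, supply genes called higher 1 to 6, all genes called lower 1385 to 1880, supply genes called lower 3 to 5, H4 sum 0.51 to 0.82, Hist4 sum 0.87 to 1.64. The genotypes share only replicate numbers 1 and 2. Deviations of same-numbered libraries from their group means had correlations of -0.179 (number 1) and 0.181 (number 2). With 2 C3G KO libraries, their deviations mirror each other. The 2 values are therefore not separate checks, and they cannot settle whether the numbers pair the samples. The correlation of WT 3 with C3G KO 1 was 0.334. With a replicate block 45 members were called higher, beside 11.9% of all genes, and the median member log2 fold change was 0.69. WT 3 has no C3G KO library of its number, so in fits with the block it did not enter the genotype difference. Leaving out WT 3 also gave a median of 0.69, so the block and leaving out WT 3 are not separate checks. Hist1h2aj, a pseudogene near 0, also changed sign with coding length and GC correction (-0.10), length and GC correction with replicate block (-0.48), length and GC correction (-0.26), pseudocount 0.1 (-0.13), replicate block (-0.19), and Npat with length and GC correction with replicate block (0.033). As deposited the log2 fold change changed sign in Hist1h1b (-0.010), Hist2h2aa2 (-0.18), Hist1h2al (-0.084), Hist1h2aj (-0.082), Hist2h2bb (-0.13), Hist1h2bb (-0.023), Hist1h2bk (-0.20), Hist1h2bj (-0.23), Hist1h2bc (-0.19), Hist1h3c (-0.0049), Hist1h4n (-0.033), Hist1h4a (-0.10), Hist1h4b (-0.28), Hist1h4d (-0.26), Hist3h2ba (-0.0077), Hist3h2bb-ps (-0.11), Hist1h2bq (-0.077), H2afz (-0.28), H3f3a (-0.42), Slbp (-0.40), Ncbp1 (-0.32), E2f1 (-0.19), H1f0 (-0.29), H2afv (-0.40), Gins2 (-0.053), Mcm3 (-0.22), Top2a (-0.32). With quantile normalization it did so in Hist2h2aa2 (-0.015), Hist1h2bk (-0.036), Hist1h2bj (-0.025), Hist1h4b (-0.082), H2afz (-0.095), H3f3a (-0.22). With 1 library left out Hist1h2aj ran from -0.18 to 0.65. Where no cause is given, it was not tested. Fits without 1 C3G KO library, alone or with WT 3, assume that the remaining one varies like WT. The number of libraries and the unknown read depth limit every value.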

Other observations

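Genes of S phase were examined beside the members because histone mRNA is made in that phase. The study reports slower proliferation of C3G null cells and, by FACS, more of them in G1 than in controls. It proposes a delayed passage from G1 to S phase. The part of the cell cycle in the values given here was not tested. Of 22 tested S phase genes, 11 rose, 0 fell and 11 did not pass on scaled values (limma, adjusted p under 0.05), beside 14.1% of genes higher, with a median log2 fold change of 0.32. As deposited, 0 were called higher and 3 lower, beside 1.45% of genes higher and 56.8% lower. The deposited median was -0.35, beside -0.55 for all genes tested. Gins2, a subunit of the replicative helicase complex, had 8.36, 8.05 and 9.36 scaled TPM in the WT libraries and 15.6 and 11.5 in C3G KO (log2 fold change 0.59, adjusted p = 0.0203 by limma). Mcm3, another helicase subunit, had a log2 fold change of 0.46 (adjusted p = 0.00868 by limma). Both turned below 0 as deposited (-0.053 and -0.22).

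Of 17 tested genes of G2 and M phase, 1 rose, 4 fell and 12 did not pass on scaled values, beside 16.6% of genes lower, with a median of 0.11. The kinetochore genes Cenpf and Cenpe both fell (log2 fold changes -0.47 and -0.47, adjusted p = 0.0129 and 0.00545 by limma), and also had values below 0 as deposited (-1.12 and -1.10). Top2a, which encodes a DNA topoisomerase, rose (0.38, adjusted p = 0.0186 by limma) but had -0.32 as deposited and lost its call in 6 further alternatives, as Gins2 did in 4 and Cenpf in 2. The difference between the S phase and the G2 and M phase lists was not tested.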
